A study of Mus musculus with 119 samples.

Results

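The comparison described here is that of TPL-2 kinase-dead against wild-type (WT) bone marrow-derived macrophages (BMDMs) after 2 h of LPS. Its members are the libraries whose titles place them in these groups, 6 of Map3k8[D270A] genotype (replicates 1 to 6) and 4 of WT genotype (replicates 4 to 7), which are 10 of the 119 RNA-seq libraries in the series. All mice were of the C57BL/6(NIMR) strain, and all cells were grown from bone marrow in L-cell conditioned medium and then received LPS, a bacterial ligand of TLR4, at 100 ng/ml. The other libraries used are the same genotypes without LPS and at 0.5 and 1 h (6 of each genotype at each time) and Elk1-/-Elk4-/- BMDMs at 2 h (n = 4), which the labels place in a separate experiment. The labels name no animal for any library, so the p values measure the spread between libraries, part of which may be technical.

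TPL-2, the product of Map3k8, is the kinase that links TLR4 to the ERK1/2 MAP kinases in macrophages. It is held inactive by NF-κB1 p105 until the IKK complex triggers p105 proteolysis, after which TPL-2 phosphorylates MKK1/2, the kinases that activate ERK1/2. The D270A allele encodes a TPL-2 protein without kinase activity in every cell of the mouse, so the mutation was also present during the growth of the macrophages. Because the allele is a point mutation, Map3k8 mRNA does not check the genotype. At 2 h it stood at 11.37, 11.30, 11.58, and 11.14 in the WT libraries and between 10.87 and 11.21 (median 11.03) in the Map3k8[D270A] libraries on the deposited log2 scale.

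Values were taken as log2 normalized expression, and a difference is the mean of the Map3k8[D270A] libraries minus the mean of the WT libraries on that scale. Genes with almost no signal sit at values of their own with hardly any spread (Gzma, a gene of cytotoxic lymphocytes, lay between -2.36 and -2.35 in all 10 libraries), so differences of low genes may be compressed. Macrophage markers were high in both groups: the sum of 12 of them was 488000 to 524000 in WT and 432000 to 482000 in Map3k8[D270A] libraries on the linear scale. Lyz2, which encodes lysozyme, made up 54.2% to 58.2% of that sum, and without it the ranges overlapped (204000 to 221000 and 184000 to 212000). Csf1r, the receptor for the growth factor M-CSF, lay between 15.04 and 15.31 in all 10 libraries. The sum of 13 neutrophil markers was far smaller (589 to 819 and 602 to 1020), and 5 of them reached a linear value of 10. Mmp8 made up 72.4% to 85.1% of it, and without Mmp8 the sums were 96.7 to 226 and 95.7 to 178. S100a8 (4.6 to 5.76), S100a9 (4.51 to 6.45), Ngp (3.87 to 5.15), and Ltf (3.52 to 4.69) were present at low log2 levels, with ranges that overlapped between the groups, while Ly6g and Elane were below 0 on the log2 scale throughout, as were the T cell markers Cd3e, Cd3d, and Cd3g. Of the markers tested, 4 of 12 macrophage genes were lower (Msr1, Lyz2, Aif1, and Adgre1, by 0.20 to 0.33). So were 2 of 5 dendritic cell genes (Zbtb46 by 0.78 and Ccr7 by 0.54), against 13.1% of all genes tested. Aif1 was not lower within the second replicate set described below. None of 8 neutrophil genes, of 3 fibroblast genes, or of the 1 gene each tested for lymphocytes, mast cells, and erythroid cells passed. In bulk RNA, fewer cells of a kind and less RNA per cell cannot be told apart.

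The libraries fell into sets. The first principal component of the 10 libraries held 39.6% of the variance and placed WT 4 to 6 and Map3k8[D270A] 1 to 3 on one side and WT 7 and Map3k8[D270A] 4 to 6 on the other, and the second held 32.9% and ordered the libraries by genotype. These are called the first and the second replicate set, after the order of the numbers in the titles, since the labels do not say what was done together. The second set holds 1 WT library at 2 h. The MHC class II chain gene H2-Ab1 differed between the sets in both genotypes, at 10.78 to 11.61 in WT 4 to 6 and 9.70 in WT 7, against 10.47 to 10.84 and 9.49 to 9.88 in the corresponding Map3k8[D270A] libraries. Rn45s, the ribosomal RNA precursor, ran from 14.12 to 19.81 over the 10 libraries and was highest in WT 5; its part in the results was not tested, and leaving out WT 5 gave 58 lower and 14 higher genes at 2 h in place of the 65 and 14 below.

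At 2 h of LPS the losses outnumbered the gains among large differences. Of 11884 genes tested, the Map3k8[D270A] cells had 65 with a level lower by 2-fold or more (0.547% of genes tested) and 14 with one higher by 2-fold or more (0.118%), at an adjusted p below 0.05 from limma; these are the genes called here. The first set alone gave 73 lower and 43 higher. If the scale were a natural logarithm, the counts at 2-fold would be 158 lower and 39 higher. At the adjusted p alone, 1557 genes were lower (13.1%) and 1735 were higher (14.6%), and the median difference over all genes tested was 0.0115. With the spread of the libraries compared only, 917 were lower and 847 higher at the adjusted p, so which direction held more genes depended on the setting. The 65 lower genes differed by 1.00 to 3.78 on the log2 scale, with a median of -1.27, and in 58 of them every WT library lay above every Map3k8[D270A] library. Groups that do not overlap, in either direction, were found for 1735 genes, also 14.6% of those tested.

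**Figure D1:**
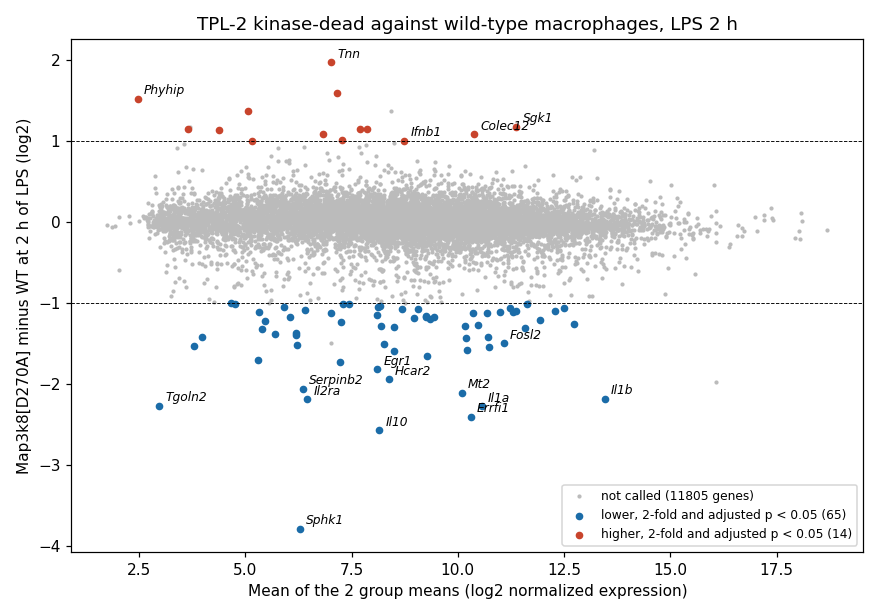
Difference between Map3k8[D270A] and WT cells at 2 h of LPS (vertical axis, log2) against the mean of the 2 group means (horizontal axis, log2 normalized expression), 1 point per gene tested. Blue points are the 65 genes at least 2-fold lower and red points the 14 at least 2-fold higher at an adjusted p below 0.05 (limma), dashed lines mark a 2-fold difference, and Sphk1 is the lowest point at -3.78.

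Sphk1, which makes the lipid mediator sphingosine 1-phosphate, had the largest difference. It stood at 7.72, 7.97, 9.66, and 7.34 in the WT libraries and at 3.82 to 4.96 (median 4.39) in the Map3k8[D270A] libraries. The groups did not overlap, and the difference was -3.78 ± 0.22 (SE; adjusted p = 6.12e-20, limma). Of 19 lipid mediator genes tested, 8 were lower and 1 was higher at the adjusted p, with a median of -0.18. For this list and those below, the shares over all genes tested at 2 h were 13.1% lower and 14.6% higher. Ptgs2, the inducible cyclooxygenase of prostaglandin synthesis, had WT values of 12.70, 12.40, 12.62, and 12.41 and Map3k8[D270A] values of 10.55 to 11.98 (median 11.38). Its groups did not overlap, but Map3k8[D270A] 4 to 6 lay more than 1 below Map3k8[D270A] 1 to 3, and its difference was -0.62 within the first set and -1.71 within the second. Ptger2, the EP2 receptor for prostaglandin E2, fell by 1.15 (adjusted p = 5.07e-12, limma), and Ptges, the inducible prostaglandin E synthase, fell by 0.59 (adjusted p = 5.5e-05, limma).

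Of the 20 lists, that of cytokines held the most genes at least 2-fold lower. Of 25 cytokine and growth factor genes tested, 15 were lower and none was higher at the adjusted p (median -0.46), and 7 were lower by at least 2-fold. With a term for the replicate set, 14 were lower and 3 were higher (median -0.32). Il10, which encodes the main anti-inflammatory cytokine of macrophages, stood at 9.22, 9.38, 9.69, and 9.47 in WT and at 6.67 to 7.07 (median 6.88) in Map3k8[D270A] libraries. The gap between the groups exceeded the range within either, and the difference was -2.57 ± 0.14 (SE; adjusted p = 9.34e-21, limma).

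Both genes for interleukin 1 were lower. Il1a had WT values of 11.72, 11.53, 11.85, and 11.68 against 9.21 to 9.69 (median 9.40), a difference of -2.27 ± 0.20 (SE; adjusted p = 4.29e-13, limma). Il1b had WT values of 14.56, 14.44, 14.68, and 14.50 against 12.15 to 12.59 (median 12.36), a difference of -2.18 ± 0.18 (SE; adjusted p = 2.89e-14, limma). Neither gene overlapped between the groups, and the differences in the first and the second replicate set were -2.09 and -2.45 for Il1a and -2.01 and -2.32 for Il1b. Il1bos, which lies antisense to Il1b, was lower by 1.42. The libraries were strand-specific per the methods, but the strand setting of the counter is not known here, so reads of this pair may not be told apart.

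Further cytokine genes were lower. Il23a, the p19 subunit of IL-23, stood at 6.11, 6.13, 6.20, and 6.19 in WT and at 4.15 to 4.68 (median 4.54) in mutant libraries (difference -1.70, adjusted p = 4.43e-08, limma). The WT values of Il23a lay close together and all above the mutant range. Lif, a cytokine of the IL-6 family, fell by 1.32, Csf2, which encodes GM-CSF, fell by 1.22, and Tnf, with WT values of 15.29, 15.20, 15.18, and 15.23 against 14.47 to 14.82 (median 14.70), fell by 0.56 (adjusted p = 3.82e-05, limma). Il6 differed by -0.43 (adjusted p = 0.148, limma) and Il12b, which encodes the p40 subunit shared by IL-12 and IL-23, by 0.30 (adjusted p = 0.477, limma).

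Chemokine genes were lower in 12 and higher in none of 19 tested (median -0.33), and lower in 12 and higher in 1 with a term for the replicate set. Cxcl2, a neutrophil attractant, stood at 13.10, 12.83, 12.99, and 13.20 in WT and at 11.68 to 12.40 (median 11.94) in Map3k8[D270A] libraries, a difference of -1.06 ± 0.11 (SE; adjusted p = 1.09e-10, limma). Its neighbor Cxcl3 fell by 1.2 with groups that did not overlap (WT 9.79 to 10.12, mutant 8.32 to 9.17). Ccl22 fell by 0.77 and Ccl17, a ligand of the same receptor CCR4, fell by 0.70. The interferon-inducible Cxcl10 (0.10, adjusted p = 0.674, limma) and Ccl5 (-0.01, adjusted p = 0.974, limma) did not pass the test.

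**Figure D2:**
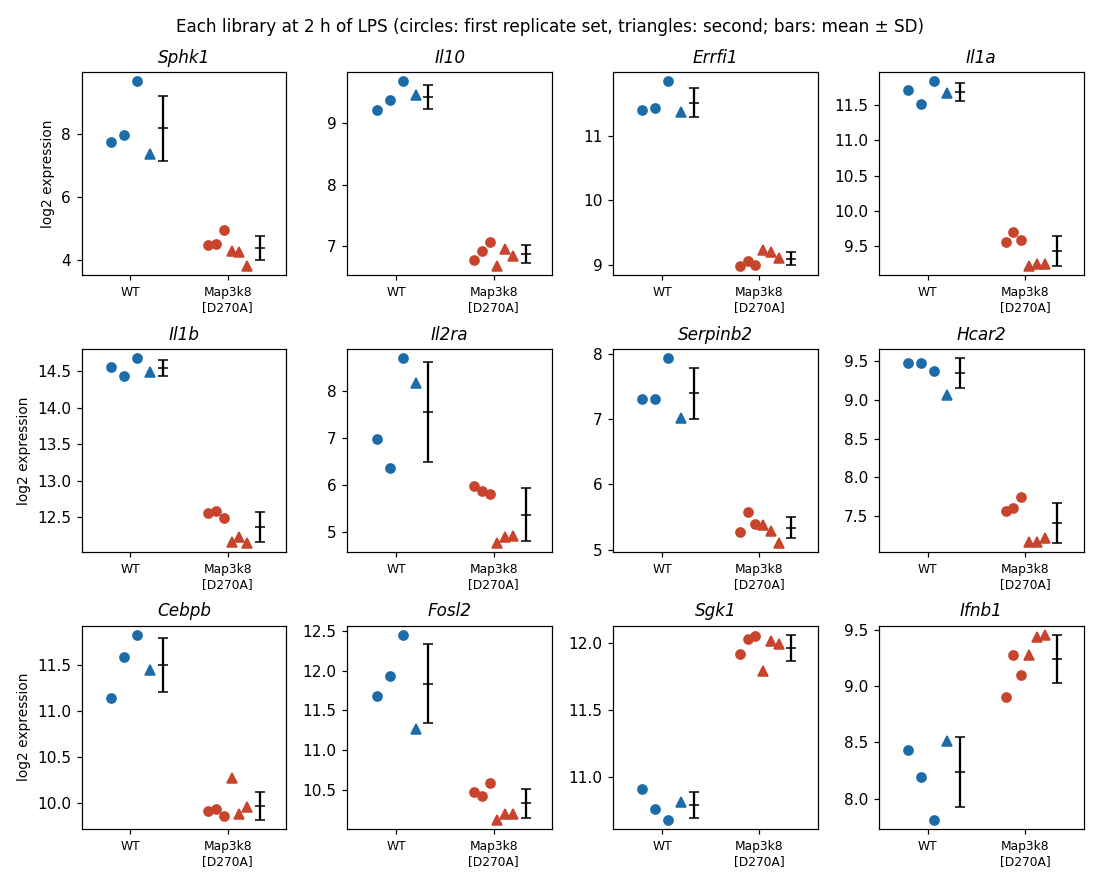
Each library at 2 h of LPS for 12 genes (vertical axes, log2 normalized expression), with circles for the first and triangles for the second replicate set, and black bars for the mean ± SD of WT (n = 4) and Map3k8[D270A] (n = 6). In each of the 12 panels all WT points lie on one side of all Map3k8[D270A] points, above them for the first 10 genes and below them for Sgk1 and Ifnb1.

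Genes for transcription factors that act downstream of LPS were also lower, but not uniformly. Among 13 AP-1 genes tested, 6 were lower and 2 were higher (median -0.18). Fosl2, which encodes FRA-2, stood at 11.68, 11.94, 12.45, and 11.27 in WT and at 10.13 to 10.59 (median 10.31) in mutant libraries. The lowest WT library lay above the highest mutant library, and the difference was -1.49 ± 0.12 (SE; adjusted p = 3.72e-14, limma). Batf fell by 0.91, Jdp2 by 0.71, and Fosl1 by 0.55. Jun, with WT values of 10.64, 10.84, 10.79, and 10.39 and mutant values of 10.86 to 11.55 (median 11.17), was higher by 0.52 (adjusted p = 2.36e-05, limma), and Fos differed by -0.16 (adjusted p = 0.27, limma).

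C/EBP factors, which bind the promoters of many cytokine and acute phase genes, had large differences. Cebpb stood at 11.14, 11.59, 11.83, and 11.44 in WT and at 9.85 to 10.27 (median 9.92) in Map3k8[D270A] libraries, a difference of -1.53 ± 0.14 (SE; adjusted p = 8.08e-13, limma). Cebpd stood at 10.04, 10.21, 10.28, and 9.83 against 8.07 to 8.72 (median 8.51), a difference of -1.65 ± 0.09 (SE; adjusted p = 3.08e-20, limma). Neither overlapped between the groups, and Cebpb was already lower without LPS, by 0.63 (adjusted p = 0.00213, limma). Tle3, a Groucho family corepressor, fell by 1.42 (adjusted p = 2.8e-18, limma). Of the 30 C/EBP, Maf, ETS, and other factors tested, 15 were lower and 3 were higher (median -0.25), and Maf fell by 0.59.

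Some immediate early genes, which are switched on without new protein synthesis, were still lower at 2 h. Of 22 tested, 13 were lower and 1 was higher (median -0.41). Egr1, a zinc finger factor, stood at 8.99, 9.28, 9.27, and 8.53 in WT and at 7.01 to 7.41 (median 7.19) in mutant libraries (difference -1.81 ± 0.15 SE; adjusted p = 3.28e-14, limma), and the groups did not overlap. Phlda1 fell by 1.28, Maff, a small Maf protein, by 1.17, Kdm6b, the H3K27 demethylase JMJD3, by 1.16, and Myc by 1.07. Klf4, a Krüppel-like factor, was the member that was higher, by 0.25.

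Some feedback inhibitors of receptor and MAP kinase signaling were lower as well. Errfi1, which encodes the EGFR inhibitor MIG6, stood at 11.39, 11.43, 11.84, and 11.37 in WT and at 8.99 to 9.23 (median 9.09) in Map3k8[D270A] libraries. The ranges were more than 2 apart, and the difference was -2.41 ± 0.17 (SE; adjusted p = 2.26e-16, limma). Of 16 MAPK feedback genes tested, 9 were lower and 2 were higher (median -0.41). The MAP kinase phosphatase genes Dusp1, Dusp7, Dusp4, Dusp2, Dusp5, and Dusp16 were lower by 0.26 to 0.91, as were Spred1 and Spred2, inhibitors of RAF activation, by 0.58 and 0.61. Dusp8, a phosphatase that acts on JNK and p38, went the other way: it stood at 6.71, 7.09, 6.53, and 6.74 in WT and at 7.69 to 7.89 (median 7.77) in mutant libraries, a difference of 1.02 ± 0.11 (SE; adjusted p = 1.72e-10, limma). Dusp6, a phosphatase of ERK1/2, differed by -0.15 (adjusted p = 0.273, limma).

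Of 31 components of the TPL-2 and MAP kinase cascades tested, 11 were lower and 4 were higher, none by 2-fold, with a median of -0.06. Map2k3, which encodes the p38 activator MKK3, stood at 12.26, 12.30, 12.39, and 12.23 in WT and at 11.44 to 11.65 (median 11.48) in mutant libraries, a difference of -0.79 ± 0.05 (SE; adjusted p = 2.82e-19, limma). Its groups did not overlap. The p38 substrate kinases Mapkapk3 and Mapkapk2 fell by 0.76 and 0.38, Cd14, the LPS coreceptor, by 0.45, and Map3k8 and Nfkb1, which encodes p105, by 0.31 each.

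Some receptor genes were lower by 2-fold or more. Hcar2, the receptor for niacin and β-hydroxybutyrate, stood at 9.48, 9.48, 9.37, and 9.06 in WT and at 7.16 to 7.74 (median 7.39) in Map3k8[D270A] libraries (difference -1.94 ± 0.16 SE; adjusted p = 1.17e-14, limma). Adora2b, the low-affinity adenosine receptor, fell by 1.5, the medium-chain fatty acid receptor Gpr84 by 1.27, and the adenosine receptor Adora3 by 0.95. Among 27 G-protein-coupled and purinergic receptor genes tested, 11 were lower and 5 were higher (median -0.12), the latter including Rgs16 (0.74) and Gpr183 (0.60).

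Of 23 genes of matrix, adhesion, and plasminogen activation, 11 were lower and none was higher (median -0.14). With a term for the replicate set, 10 were lower and 1 was higher. Serpinb2, the plasminogen activator inhibitor PAI-2, stood at 7.31, 7.31, 7.94, and 7.02 in WT and at 5.10 to 5.58 (median 5.33) in mutant libraries, a difference of -2.06 ± 0.15 (SE; adjusted p = 4.24e-16, limma), with no overlap. The collagenase gene Mmp13 fell by 1.26 from WT values of 13.18 to 13.59, Flrt3 by 1.36, Timp1, an inhibitor of metalloproteinases, by 1.12, and Plaur, the urokinase receptor, by 0.98. Lad1 overlapped between the groups, with WT values of 7.97, 5.70, 7.84, and 6.07 against 4.66 to 6.39, and its difference of -1.39 was -1.11 with a term for the replicate set and no longer passed (adjusted p = 0.0644, limma).

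Genes for cytokine receptors and their inhibitors were lower in 15 and higher in none of 26 tested (median -0.22). With a term for the replicate set, 16 were lower and 2 were higher. Cish, an inhibitor of STAT5 signaling, stood at 10.72, 11.10, 11.15, and 10.24 in WT and at 8.94 to 10.06 (median 9.57) in mutant libraries (difference -1.29; adjusted p = 6.11e-08, limma). Il4ra fell by 1.1, Socs3, an inhibitor of IL-6 family signaling, by 0.76, and Il1r1 by 0.75. Il2ra, the α-chain of the IL-2 receptor, was lower by 2.19 (adjusted p = 8.09e-11, limma), with 6.98, 6.37, 8.70, and 8.16 in WT and 4.77 to 5.97 (median 5.36) in mutant libraries. The spread of Il2ra was wide in WT cells, and its difference was -1.47 in the first and -3.31 in the second replicate set.

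No gene of the NF-κB list differed by 2-fold. Of 25 subunits, inhibitors, and targets tested, 11 were lower and none was higher (median -0.16). The largest were Tnip1 (-0.69) and Tnip3 (-0.60), which encode A20-binding inhibitors, Bcl3 (-0.67), and Nfkbid (-0.56), both nuclear IκB proteins. Sod2, a mitochondrial superoxide dismutase and NF-κB target, fell by 0.25. Among 13 mRNA decay factors, 6 were lower and 1 was higher (median -0.12), with Zc3h12a, the RNase Regnase-1, lower by 0.86 and Zfp36, which encodes tristetraprolin, by 0.40.

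Other lists covered metabolism, stress, growth, and cell death. Some of their counts lie near the shares over all genes tested, 13.1% lower and 14.6% higher. Of 23 glycolysis and hypoxia-response genes, 4 were lower, led by Pfkfb3 (-0.77), and 3 were higher (median 0.07). Of 20 genes of the integrated stress and NRF2 responses, 6 were lower and 3 were higher (median -0.05), including Ddit4 (-0.90) and Trib3 (0.81). In the cholesterol, fatty acid, and LXR list 2 of 25 were higher, Mylip by 0.63 and Abcg1 by 0.56, and none was lower (median -0.02). Cell cycle genes were lower in 3 and higher in 2 of 27 (median 0.08), with Ccnd2, which encodes cyclin D2, lower by 1.11. Of 24 cell death and survival genes, 8 were lower and 4 were higher (median -0.07), among them 3 copies of the Bcl2a1 family (-0.42 to -0.52), which share near-identical sequence so that reads may be split between them.

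The list of FOXO and AKT-linked genes held 9 higher and 3 lower of 17 tested, with a median of 0.21. Sgk1, a kinase related to AKT, stood at 10.91, 10.76, 10.68, and 10.81 in WT and at 11.79 to 12.05 (median 12.004) in Map3k8[D270A] libraries. The groups lay apart by more than the range of either, and the difference was 1.18 ± 0.07 (SE; adjusted p = 9.98e-19, limma). Tsc22d3, which encodes GILZ, was higher by 0.60 and Sesn1, a stress-induced sestrin, by 0.57. Trib1 was lower by 0.71.

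**Figure D3:**
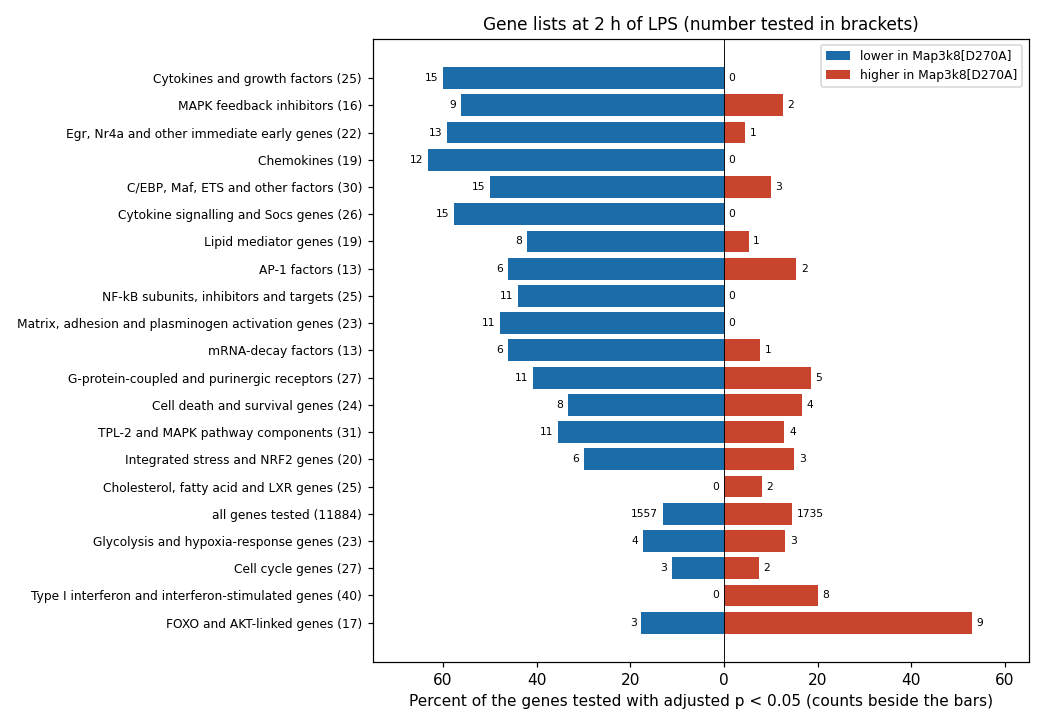
Percent of the genes tested in each list that were lower (blue, to the left) or higher (red, to the right) in Map3k8[D270A] than in WT cells at 2 h of LPS at an adjusted p below 0.05 (limma), with counts beside the bars and the number tested in brackets. Against 13.1% lower and 14.6% higher over all 11884 genes tested, 15 of 25 cytokine genes were lower and 9 of 17 FOXO and AKT-linked genes were higher.

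Because genes for AP-1 and C/EBP factors were among those lost, short motifs were looked for in the promoters of the 65 lower genes (250 bases before to 50 after the start, RefSeq on GRCm38.p6, both strands, each motif searched apart so that hits may overlap). A promoter was matched by symbol for 48 of the 65 lower, 7 of the 14 higher, and 9153 of the 11884 genes tested, and the first listed was used where a gene had several. The AP-1 motif TGANTCA was in 9 of the 48 (18.8%) and in 5.06% of all matched promoters, and the C/EBP motif TTGCNNAA in 11 (22.9%) and 8.38%. An NF-κB site was in 7 (14.6%) and 5.04%. Of the 7 promoters of higher genes, 3 held an NF-κB site (Ccdc122, Ifnb1, and Tnn), 1 held TTGCNNAA (Tnn), 1 held TGACGTCA (Dusp8), and none held the other motifs. The ETS motif CCGGAAG, the cyclic AMP response element TGACGTCA, and the CArG box of serum response factor were in none of the 48, against 19.1%, 3.43%, and 1.23% of all. These are matches of letters and were not tested, and they do not show binding. The 100 bases before the start are shown for Il1a and Mmp13 with TGANTCA in capitals, for Ptgs2 and Saa3, an acute phase gene that fell by 1.59, with TTGCNNAA on either strand in capitals, and for Cxcl2 with its overlapping NF-κB sites in capitals, since these genes are among the losses described here.
Il1a, chr2:129309973-129310072, minus strand: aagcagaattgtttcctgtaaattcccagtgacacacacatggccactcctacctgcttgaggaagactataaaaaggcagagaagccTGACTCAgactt
Mmp13, chr9:7272414-7272513, plus strand: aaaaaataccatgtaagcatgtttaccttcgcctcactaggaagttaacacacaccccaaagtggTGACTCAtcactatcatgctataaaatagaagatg
Ptgs2, chr1:150099931-150100030, plus strand: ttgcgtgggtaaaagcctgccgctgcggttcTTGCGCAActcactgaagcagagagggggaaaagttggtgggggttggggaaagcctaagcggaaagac
Saa3, chr7:46715677-46715776, minus strand: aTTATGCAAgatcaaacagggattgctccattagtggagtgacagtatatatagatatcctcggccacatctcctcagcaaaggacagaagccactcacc
Cxcl2, chr5:90903799-90903898, plus strand: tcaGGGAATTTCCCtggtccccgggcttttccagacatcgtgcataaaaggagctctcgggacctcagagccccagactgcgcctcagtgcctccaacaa

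Few of the lower genes differed without LPS. There, 3 of the 65 were lower at the adjusted p (0.833% of genes tested) and 1 by 2-fold, Lrrc17, a secreted leucine-rich repeat protein, whose difference was -1.51 without LPS and -1.53 at 2 h. At 2 h all Map3k8[D270A] libraries lay below a linear value of 10 for Lrrc17 (2.82 to 3.23), so the size of its difference is not exact. LPS raised 37 of the 65 at least 2-fold in WT cells by 1 h (3.2% of genes tested) and 59 by 2 h (7.72% of genes tested). The count at 2 h uses the WT libraries by which the 65 were chosen, which favors genes high in them. In the test of the difference itself, 63 genes had a genotype difference at 2 h that was lower than that without LPS by at least 2-fold (0.53% of genes tested), 51 of them among the 65, and 7 genes had one that was higher (0.0589%): Tnn, Tgtp1, Gm8221, Sgk1, Dusp8, Apol7c, and Ifnb1. In place of these 7, the first set alone gave 56, a term for the set 11, and the spread of the libraries compared only 3. The 65 were chosen by the same difference at 2 h, which favors their share of the 63.

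Timing separated early from late losses. Of the 65 genes, 2 were already 2-fold lower at 0.5 h (0.101% of genes tested) and 19 at 1 h (0.244%). The 2 at 0.5 h were Egr1 and Lrrc17. Lrrc17, also among the 19, was lower by 1.51 without LPS, so it is not an early loss after LPS. Between 1 and 2 h the genotype difference moved down by at least 2-fold for 27 genes (0.227%), 21 of them among the 65, and moved up for 5 (0.0421%). The first set alone gave 21 and 37, and the 5 became 8 without WT 5, 8 without Map3k8[D270A] 4, and 9 without Map3k8[D270A] 6. The overlap with the 65 is favored by their choice on the same difference at 2 h. Sphk1 went from -0.47 at 1 h to -3.78 at 2 h, a change of -3.31 ± 0.29 (SE; adjusted p = 1.57e-12, limma). Its WT mean rose from 3.93 ± 0.35 (SD, n = 6) to 8.17 ± 1.02 (SD, n = 4), while its mutant mean rose from 3.46 ± 0.34 to 4.39 ± 0.37 (SD, n = 6).

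Il10 followed another course. It was induced in both genotypes by 1 h, to 9.78 ± 0.25 in WT and 9.25 ± 0.38 in mutant cells (SD, n = 6), where it was already lower by 0.53 (adjusted p = 0.00229, limma), and then stayed at 9.44 ± 0.20 in WT (SD, n = 4) but stood at 6.87 ± 0.14 in mutant cells (SD, n = 6). Edn1, which encodes endothelin 1, was 0.48 higher in mutant cells at 1 h and 1.58 lower at 2 h, and B3gnt7, a glycosyltransferase, went from 0.24 to -1.72. Tle3, at 0.05 at 1 h and -1.42 at 2 h, had not risen in WT cells at 1 h. Il2ra went from -0.20 to -2.19.

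Some of the earliest genes took the opposite course. Egr1 was lower by 4.41 at 0.5 h, 3.24 at 1 h, and 1.81 at 2 h, so that its difference at 2 h was smaller in size than at 1 h by 1.43 ± 0.20 (SE; adjusted p = 6.56e-07, limma). Egr3 went from -1.69 at 1 h to -0.63 at 2 h, Fosb, a FOS family member, from -1.29 to -0.08, and Fos from -1.16 to -0.16. The nuclear receptor gene Nr4a1 stood at -1.07 and -0.58, and Ier3, a survival gene, at -1.32 and -0.55. Of these genes, only Egr1 is given with the test of the change, and the 5 genes that moved up by 2-fold include Egr1, Tnn, and Gm8221. Over the 22 immediate early genes the median was -0.70 at 1 h, with 18 lower (4.64% of genes tested were lower at 1 h), and -0.41 at 2 h. The change of this median was not tested, and not all early genes narrowed. Myc went from -0.74 at 1 h to -1.07 at 2 h (change -0.33, adjusted p = 0.0281, limma). Maff stood at -1.15 and -1.17. Il23a (-1.81 and -1.70) and Kdm6b (-1.31 and -1.16) had similar differences at 1 and 2 h.

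**Figure D4:**
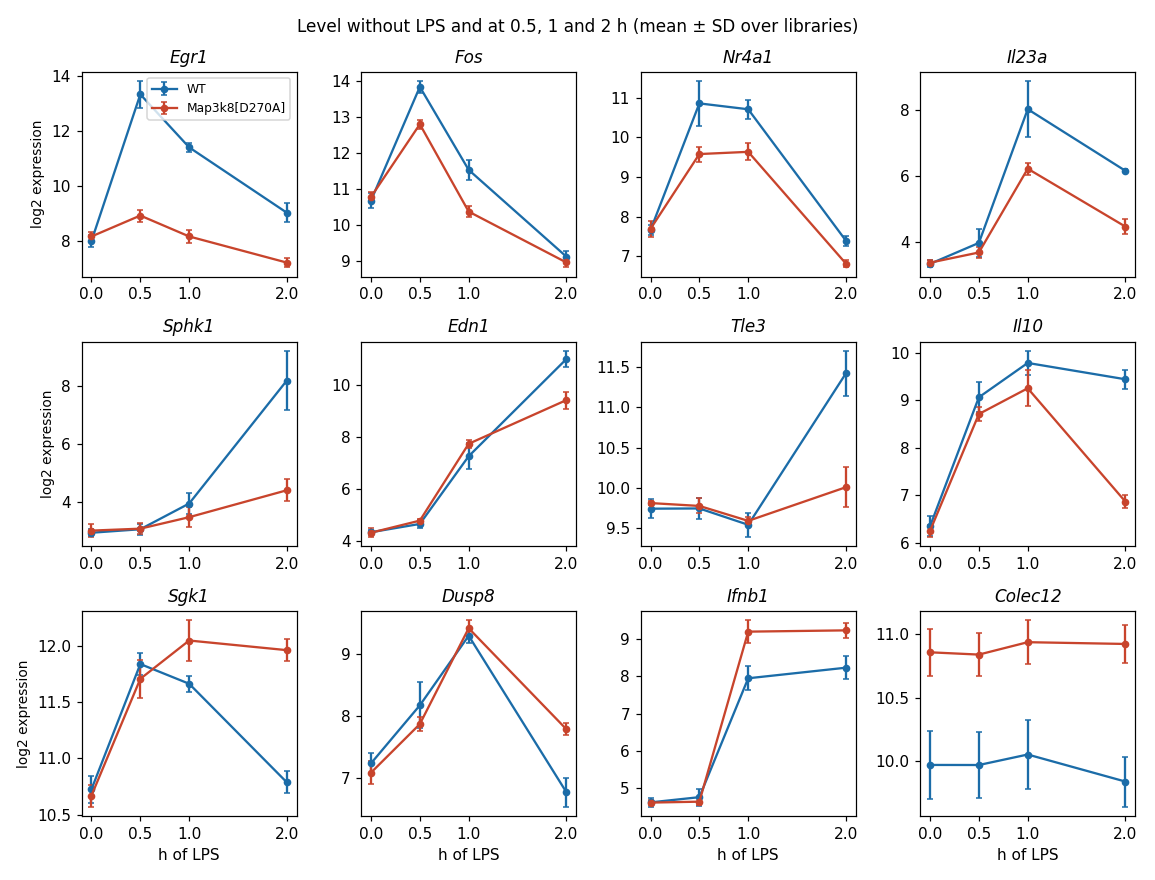
Mean level ± SD over libraries (vertical axes, log2 normalized expression) without LPS and at 0.5, 1, and 2 h of LPS (horizontal axes) for 12 genes in WT (blue; n = 6, and 4 at 2 h) and Map3k8[D270A] cells (red; n = 6). Egr1 is farthest apart at 0.5 h, the gaps of Sphk1, Tle3, and Il10 are wider at 2 h than at 1 h, and Colec12 is apart by 0.89 already without LPS.

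The 14 higher genes were of distinct kinds. In 8 of them every Map3k8[D270A] library lay above every WT library, and the groups of Tnn, Tgtp1, Gm8221, Gfra2, Ccdc122, and Apol7c overlapped. Sgk1, Dusp8, and Ifnb1 were among the genes whose difference at 2 h exceeded that without LPS. Ifnb1, the gene for interferon β, stood at 8.43, 8.19, 7.81, and 8.51 in WT and at 8.91 to 9.45 (median 9.27) in mutant libraries, a difference of 1.00 ± 0.14 (SE; adjusted p = 1.5e-07, limma), and it was 1.25 higher at 1 h. Its groups did not overlap, and its difference was 0.95 in the first and 0.88 in the second set. With a term for the replicate set, 12 of the 14 kept a 2-fold difference, and Dusp8 and Ifnb1 stood just below it.

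The genes on chromosomes 14 and 18 stood apart from these, and 7 of the 14 lay there. Phyhip, Gfra2, Tnfrsf10b, and Ccdc122 lie within 7.34 Mb of chromosome 14, of which 390 genes were tested. Ankrd29, Colec12, and Cables1 lie within 2.6 Mb of chromosome 18, at 7.92, 5.38, and 7.51 Mb from Map3k8 itself, of 288 tested there. Apart from Ccdc122 (0.53; adjusted p = 0.0986, limma), all of these were higher without LPS too: Phyhip, which was low in the WT libraries at 2 h (1.68 to 1.75), by 1.37, Gfra2, a GDNF family receptor, by 1.56, Tnfrsf10b, the TRAIL receptor, by 0.88, Ankrd29 by 1.5, Colec12, a scavenger receptor, by 0.89, and Cables1 by 1.29. At 2 h all WT libraries lay below the filter's linear value of 10 for Phyhip, and for Gfra2 as well (2.96 to 3.19). Phyhip reached that value only in Map3k8[D270A] 2 (3.58) and Map3k8[D270A] 5 (3.61), and the other Map3k8[D270A] libraries lay below it (2.96 to 3.17). The sizes of the differences of these genes are therefore not exact, and they count among the 14 with that limit. Of the 65 lower genes, 1 each lay on chromosomes 14 and 18, the latter being Egr1.

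Interferon-stimulated genes differed in level between the replicate sets. Of 40 genes of the type I interferon list tested, 8 were higher (14.6% of genes tested) and none was lower in the pooled comparison (median 0.14), Ifnb1 among them, with Ifit3 (0.55), Cmpk2 (0.51), and Rsad2 (0.46). A block for the replicate number turned the sign for Ifit3 and Cmpk2, as given below. Within the first set 33 of the 40 were higher (20.7% of genes tested) and none lower (median 0.53). Within the second set 2 were higher (5.23%) and 2 lower (8.12%), with a median of -0.03. The second set rests on WT 7, which is assumed to vary like the other libraries, so a difference between the sets cannot be told apart from one of that library. With this limit, the test of the difference between the sets passed for 17 of the 40 (8.06% of genes tested), and with a term for the set 22 were higher (14.4%; median 0.33).

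Single libraries show the pattern. Rsad2, the antiviral protein viperin, stood at 15.89, 15.77, and 15.78 in WT 4 to 6 and at 16.55, 16.62, and 16.71 in Map3k8[D270A] 1 to 3, but at 15.70 in WT 7 against 15.72, 15.87, and 16.02 in Map3k8[D270A] 4 to 6. Leaving out Ifnb1, all 3 mutant libraries of the first set lay above all 3 WT libraries in 38 of the 39 genes (26.3% of genes tested). In the second set all 3 mutant libraries lay above WT 7 in 9 of the 39 (31.2% of genes tested) and below it in 15 (33%). WT 7 lay below WT 4 to 6 in all 39 of these genes (31.5% of genes tested), and Map3k8[D270A] 4 to 6 lay below Map3k8[D270A] 1 to 3 in all 39 (26.7%). Whether the sets differ in animals, culture, or sequencing cannot be told apart here.

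Over all genes, what the first set gave was looked up in the second, which shares no library with it. The first set alone gave 73 genes at least 2-fold lower, of which 72 were also lower in the second set, with medians of -1.22 and -1.08. It gave 43 genes at least 2-fold higher, of which 28 were also higher in the second set, with medians of 1.27 and 0.13. Over all genes tested, 50.8% were lower in the second set. With the same assumption for WT 7, the genotype difference itself differed at least 2-fold between the sets for 47 genes (0.395%), above in the first set for 39 and below for 8. Nos2, the inducible nitric oxide synthase, was 1.34 higher in mutant cells of the first set and 1.01 lower in those of the second, and Gbp4, a guanylate-binding protein, was 1.65 higher and at 0.02. Tnn, which encodes tenascin W, and Tgtp1, an interferon-inducible GTPase, counted among the 14 higher genes but rose by 3.20 and 3.01 in the first set against 0.35 and 0.39 in the second.

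**Figure D5:**
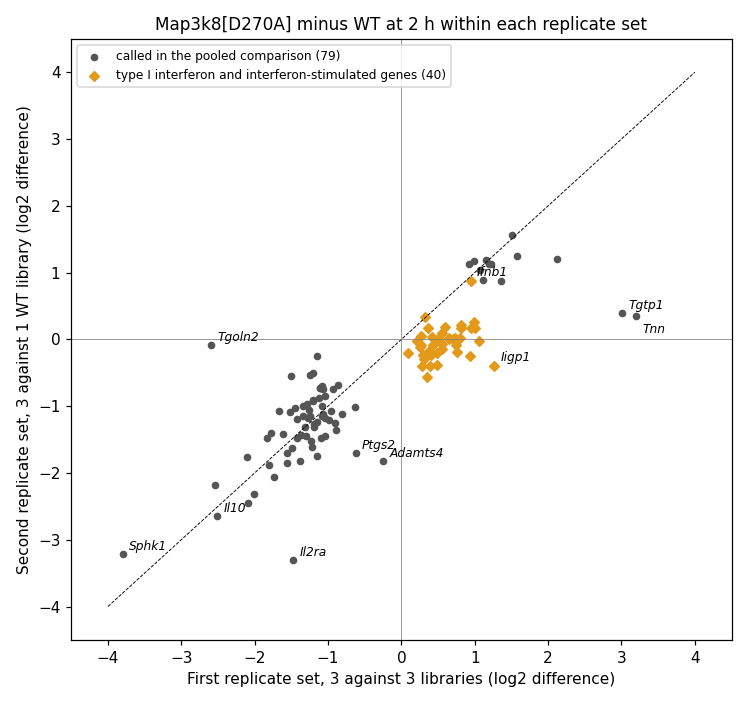
Difference between Map3k8[D270A] and WT cells at 2 h of LPS in the first replicate set (horizontal axis, 3 against 3 libraries, log2) and in the second (vertical axis, 3 libraries against 1 WT library, log2). Grey points are the 79 genes called in the pooled comparison, orange diamonds the 40 type I interferon genes, and the dashed line marks equality; most lower genes lie near it, while the interferon genes other than Ifnb1 lie to the right of 0 and around 0 on the vertical axis.

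Some of the 65 lower genes did not pass with a term for the set. Tgoln2, a trans-Golgi protein, stood at 4.12, 9.65, 1.32, and 1.34 in WT and at 1.22 to 4.58 (median 1.30) in mutant libraries, so the groups overlapped. Its difference of -2.26 (adjusted p = 0.0151, limma) did not pass with a term for the set (adjusted p = 0.394, limma). Adamts4, an aggrecanase, stood at 11.46 to 11.99 in WT and at 9.46 to 11.89 in mutant libraries, in which Map3k8[D270A] 4 to 6 were the lowest, and had a difference of -0.25 in the first and -1.83 in the second set (adjusted p = 0.0848 with the term, limma). In the test between the sets, with the assumption for WT 7, the difference changed by at least 2-fold for 3 of the 65, Adamts4, Il2ra, and Ptgs2, all of them lower in the second set. All 65 were lower in both sets, 62 passed at the adjusted p with the term, and 49 remained at least 2-fold lower. The 65 were chosen on the same libraries, which favors these counts.

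Metallothionein genes were lower as a pair. Mt2 stood at 11.16, 11.25, 11.65, and 10.51 in WT and at 8.16 to 9.71 (median 9.09) in mutant libraries, a difference of -2.10 ± 0.34 (SE; adjusted p = 1.75e-06, limma), and Mt1 fell by 1.1. The groups of Mt2 did not overlap. Mt2 held both TGACTCA and a C/EBP motif within the 100 bases before its start.

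Elk1-/-Elk4-/- cells lack 2 ternary complex factors, the partners of serum response factor that ERK1/2 phosphorylate, and the study asked how far their loss resembles that of TPL-2 activity. At 2 h Elk1 was at 6.29 ± 0.10 and Elk4 at 5.71 ± 0.14 (SD, n = 4), against WT ranges of 9.04 to 9.07 and 8.07 to 8.49. Both comparisons share the WT libraries, so the test given is that of Map3k8[D270A] against Elk1-/-Elk4-/- cells, whose genotype and experiment cannot be told apart. By it Map3k8[D270A] cells had 126 genes lower by 2-fold or more (1.06%) and 58 higher (0.488%). Of the 65 lower genes, 14 were lower than in Elk1-/-Elk4-/- cells by 2-fold, 2 were higher, and 24 did not pass at the adjusted p. The 65 were chosen for low values in the same Map3k8[D270A] libraries, which favors genes lower in them.

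Several of the lower genes, cytokine genes among them, stood lower in Map3k8[D270A] than in Elk1-/-Elk4-/- cells. Il10 stood at 8.73 to 9.20 in Elk1-/-Elk4-/- libraries against 6.67 to 7.07, a difference of -2.12 ± 0.14 (SE; adjusted p = 3.38e-18, limma). Il1a (-1.38), Il1b (-1.30), Il23a (-1.82), Serpinb2 (-1.22), and Cebpd (-1.38) were also more than 2-fold lower than in Elk1-/-Elk4-/- cells. Against WT cells, Elk1-/-Elk4-/- cells differed by -0.45 for Il10, -0.89 for Il1a, and -0.88 for Il1b. That difference was -0.84 for Serpinb2 and -0.26 for Cebpd, while that of Il23a did not pass (0.13, adjusted p = 0.694, limma). Lif (-0.21) and Tnf (-0.18) did not pass, and Csf2 was higher in Map3k8[D270A] than in Elk1-/-Elk4-/- cells, by 0.74 (adjusted p = 0.00527, limma). Hcar2 had the range of 9.54 to 9.64 in Elk1-/-Elk4-/- libraries, above all WT libraries. Its difference from WT cells there did not pass (0.24, adjusted p = 0.249, limma). Lcn2, the siderophore-binding lipocalin, had 8.20 to 8.37 in Elk1-/-Elk4-/- libraries against 6.39 to 6.92 in WT and 5.06 to 5.81 in Map3k8[D270A] libraries.

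For other losses the direct test did not pass, which does not show that they were alike. Sphk1 stood at 4.36 to 4.84 in Elk1-/-Elk4-/- libraries, -0.24 ± 0.22 apart from Map3k8[D270A] cells (SE; adjusted p = 0.363, limma), Fosl2 was -0.05 ± 0.12 apart and Cebpb -0.17 ± 0.14. Myc (-0.11), Kdm6b (0.07), Cish (0.03), and Ptger2 (-0.08) also did not pass, nor did the higher Sgk1 (0.04) and Ifnb1 (0.21). Egr1 was lower in Elk1-/-Elk4-/- cells (6.4 to 6.52) than in Map3k8[D270A] cells by 0.74 (adjusted p = 5.66e-05, limma), and Lad1 and Olr1, a receptor for oxidized LDL, by 1.65 and 1.07. Dusp8, higher in Map3k8[D270A] cells, was at 6.28 to 6.59 in Elk1-/-Elk4-/- cells, 1.31 below them (adjusted p = 4.01e-14, limma).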

How the data were processed

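RNA of BMDMs was sequenced single-end and strand-specifically, and per the labels' processing notes the authors used STAR 2.5.1b, RSEM 1.2.29, and DESeq2 1.10.1 with mm10. The deposited values were taken as log2 normalized expression, 1 per gene and library for 18098 genes. Which transformation made them is not stated in the sources used. Counts could not be read back, so the depth is unknown, no counting interval was computed, and the spread between libraries sets the precision. A pseudocount was not needed. Differences may have been drawn together by the transformation, and a natural logarithm cannot be told from a log2 scale for them.

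Groups were compared with limma 3.58.1 (R 4.3.3), without a trend, in 1 fit of 62 libraries (22 WT, 24 Map3k8[D270A], 16 Elk1-/-Elk4-/-) with a mean for each genotype and time and 50 residual degrees of freedom. The 11884 genes that reached a linear value of 10 in 4 libraries were tested, p values were adjusted by the Benjamini-Hochberg method over all of them, and a call needed an adjusted p below 0.05 together with a log2 difference of 1 or more in size. The fit was tested on simulated data. Alternatives were the spread of the libraries compared only, a block for the replicate number, the replicate sets, a trend, other normalizations, filters, and thresholds, and leaving out each library at 2 h.

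The members and the 20 gene lists and 7 marker lists were chosen with earlier results of these data known. Genes were named by a rule: the 20 lower and all higher genes with the largest differences and no overlap, up to 4 genes per list, genes the study names, and the genes whose difference changed most between times; other genes were named after their values were seen. Positions and promoters are RefSeq's on GRCm38.p6, matched by symbol or synonym for all but 43 genes tested (promoters by symbol).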

Additional observations from a re-analysis of the deposited data

Results flagged for a closer look

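These counts come from tests of whether the genotype difference itself changed with time. It was lower at 2 h than without LPS for 63 genes and higher for 7, and lower at 2 h than at 1 h for 27 and higher for 5 (limma).

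Among 306 groups of 4 or 6 libraries, of genes named by the rule or called, 17 held a library farther from the others than Dixon's test allows. The total is near 1 in 20 of the groups, but the genes are not independent and the flags were spread unevenly over the libraries. Of the 17, 8 were WT 7, the single WT library of the second set. A further 4 were WT 6, 1 was WT 5, 0 were WT 4, and 4 were Map3k8[D270A] libraries. WT 7 was above the other WT libraries for Adora2b (9.27) and Sesn1 (10.0). It was below them for F11r (7.83), Flrt3 (6.49), Nfkb1 (13.4), Nfkbid (9.66), Pdpn (10.54), and Saa3 (8.72). WT 6 was above the others for Errfi1 (11.8), Rhou (9.55), Timp1 (8.14), and Tnip3 (14.9), and WT 5 for Elk4 (8.49). Map3k8[D270A] 4 was above the others for Cebpb (10.3) and Jund (12.8), Map3k8[D270A] 1 for 4931440P22Rik (5.58), and Map3k8[D270A] 2 for Tgoln2 (4.58). The values were taken as log2 normalized expression. Each gene named here that was at least 2-fold lower in Map3k8[D270A] cells was lower within each replicate set too, Tgoln2 by 2.59 in the first but by 0.09 in the second. These genes were called on the same libraries, which favors this.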

How the results depend on the processing

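Replicate numbers did not pair the libraries: WT and Map3k8[D270A] libraries of the same number 4, 5, or 6 had deviations from their group means that correlated at -0.269, -0.139, and -0.399. A block for the number gave 147 lower and 21 higher genes by 2-fold, 1771 and 1364 at the adjusted p alone, 60 and 6 genes whose difference was below and above that without LPS, and 25 and 5 for the change from 1 h. It turned Ifit3 to -0.024 and Cmpk2 to -0.15. A replicate block by genotype and number, added after seeing the data, gave 60, 6, 24, and 5 for the time comparisons.

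With the spread of the libraries compared only, 917 genes were lower and 847 higher at the adjusted p alone, and 3 had a difference above that without LPS and 3 above that at 1 h. A term for the replicate set gave 11 genes above the difference without LPS and 11 above that at 1 h, and the first set only gave 56 and 37, with 43 genes 2-fold higher. By the second set only, in which WT 7 is assumed to vary like the other libraries, 965 genes were lower and 621 higher at the adjusted p alone, and Aif1 turned to 0.0014. Lower genes were 82.3% of those called, 62.9% by the first set only, and 73.6% with the term. A 1.5-fold threshold gave 212 lower and 72 higher genes and a threshold at the natural logarithm of 2 gave 158 and 39.

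Leaving out 1 library gave 53 to 84 lower and 12 to 17 higher genes, 1277 to 1613 and 1339 to 1755 at the adjusted p alone, 56 to 78 and 5 to 9 for the change from unstimulated cells, and 21 to 35 and 4 to 9 for that from 1 h; the last count, of 5 genes, was 8 without WT 5, 8 without Map3k8[D270A] 4, and 9 without Map3k8[D270A] 6. The causes were not tested. Under a trend, quantile normalization, median centring, no filter, and a stricter filter, all of these counts stayed within 1.5 times those reported. Of 118 named genes, 17 lost the adjusted p with the spread of the libraries compared only, 17 by the second set only, and 5 with the term for the set. The adjusted p was also lost by 9 of the named genes with a block for the number and by 7 with the first set only. The single WT library of the second set, unknown depth, and the unstated transformation limit these results.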

Other observations

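Some lower genes that the text above does not describe are given here. Tnfsf14, which encodes LIGHT, stood at 7.64, 7.76, 7.97, and 8.10 in WT and at 6.19 to 6.94 in Map3k8[D270A] libraries, a difference of -1.23 (adjusted p = 6.3e-15, limma) with no overlap. Tnfsf4, the ligand OX40L, fell by 1.17, the receptor gene Notch1 by 1.12, Pdpn, which encodes podoplanin, by 1.12, and Olr1 by 1.19. Sema4c, a semaphorin, fell by 1.43, and Slc13a3, a dicarboxylate transporter, fell by 1.38. At 1 h the differences of Notch1 (-0.05; adjusted p = 0.853, limma) and Sema4c (-0.13; adjusted p = 0.608, limma) did not pass, while Tnfsf4 was lower by 1.00 (adjusted p = 7.42e-05, limma). These genes were picked from the 65 after their values were seen.

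A few large differences did not pass, and the libraries of these genes were spread widely. Rn45s differed by -1.98 (adjusted p = 0.0644, limma) with values from 14.12 to 19.81, Eif3j1 by -1.48 (adjusted p = 0.442, limma) with values from 3.07 to 9.88, and Amd2 by 1.38 (adjusted p = 0.202, limma) with values from 6.65 to 9.97.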
